A study of Mus musculus with 9 samples.

Results

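The genes described here encode the proteins of the mitochondrial ribosome, measured in cultured 4T1 cells, which derive from a BALB/c mammary tumour. Members were the protein-coding genes whose mouse symbol starts with Mrpl or Mrps and a digit, and 78 of the 55416 genes in the files met this rule. The 5 pseudogene rows with such names were left out. Expression had no part in this naming rule, but the gene group was chosen with earlier results of these data known. Mrpl53 had 0 counts in all 9 libraries. By counting error alone this allows at most 0.15 to 0.2 counts-per-million (CPM), depending on the library. However, 88.0% of the exon bases of Mrpl53 are shared with other annotated genes, so its count is uncertain and this limit may not hold. The other 77 members passed the filter on low counts, as did 13439 genes in all, with at least 84 counts in every library.

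The 3 groups compared held 3 libraries each, all from RNA taken after 12 h in DMEM medium. MRC+L cells received MRC nanoparticles and 660 nm light for 3 min at 180 mW per square centimetre, as one label gives it. MRC cells received the nanoparticles with no light. PBS cells received fresh medium only. The labels do not spell out what MRC stands for, and they name no group with light alone and no separate cultures, so the replicate spread behind every p-value could be technical.

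Mitochondria keep their own ribosome, which makes only the few membrane subunits of the respiratory chain that mitochondrial DNA encodes. Its RNAs come from mitochondrial DNA, but every one of its proteins is made from a nuclear gene in the cytosol and imported. Some of these proteins hold places that the bacterial ribosome fills too, and others hold places found only in mitochondrial ribosomes. Names starting with Mrpl were given to the large subunit, which forms peptide bonds, and names starting with Mrps to the small subunit, which decodes the messenger RNA. Mrps18a and Mrps30 are exceptions whose proteins sit in the large subunit, and Mrps36 is now known as a subunit of the 2-oxoglutarate dehydrogenase complex. By these roles 29 large-subunit and 16 small-subunit members were classed as having a bacterial counterpart in the same place. Another 22 large-subunit and 10 small-subunit members were classed as holding places found only in mitochondria, and Mrps36 was kept apart. Mrpl55 was put among these 22, which is uncertain, because its protein may have a bacterial counterpart.

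Library totals were 15019765 to 20044166 counts, and the members took 0.261% to 0.464% of them. PBS replicate 2 stood apart. In it, short genes lay above long genes by 0.92 on the log2 scale, relative to the mean of the libraries, against -0.249 to 0.0843 in the other 8 libraries. Members are shorter than most genes, with a median merged exon length of 2394 bases against 4121 for all genes tested. Counts of calls against PBS are therefore given with and without this library, as are the values of some single genes where leaving it out changed the call. Of the 4T1 markers, keratins Krt8 and Krt18 were abundant, while Epcam and Cldn7 were near 0 in every group. The summed level of the 7 epithelial markers was 559 to 571 CPM in MRC+L cells, 632 to 665 CPM in MRC cells and 1056 to 1878 CPM in PBS cells. For 7 leukocyte markers it was 18.5 to 20.0 CPM in MRC+L cells, 17.0 to 22.8 CPM in MRC cells and 7.16 to 11.8 CPM in PBS cells, nearly all from Cd68, with Adgre1 and Cd3e at 0 throughout. The 7 stromal markers summed to 75.4 to 87.0 CPM in MRC+L cells, 79.7 to 96.1 CPM in MRC cells and 45.7 to 82.2 CPM in PBS cells. Most of this was Pdgfra, and Dcn was at or near 0. With all 9 libraries Pdgfra and Pecam1 were called higher, and Pdgfrb lower, in both exposed groups than in PBS cells. Pdgfrb had a mean of 5.49 CPM in MRC+L cells, 6.14 CPM in MRC cells and 17.1 CPM in PBS cells, so the sum hides opposite changes. The part of these shifts in the results was not tested. In bulk RNA, fewer cells of a type and less RNA per cell cannot be told apart.

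The promoters of 4 members are shown first, because these are the 2 genes that were higher and 2 of the genes that were most clearly lower in both exposed groups. Each window runs from 250 bases before to 50 bases after the annotated start, from RefSeq on GRCm38.p6, an older build than that of the counts. Capitals mark matches, on either strand, to the letters GCATGCGC of the NRF1 site, AAGATGGCG of the YY1 site, CCGGAAG of the ETS family, CACGTG of the E-box, TGACGTCA of the CRE, TGATGNAA of the ATF4 composite site and TGACNNNGC of the antioxidant response element. Mrps18b lies at chr17:35916391-35916690 on the minus strand, Mrpl16 at chr19:11770165-11770464 on the plus strand, Mrpl18 at chr17:12916042-12916341 on the minus strand and Mrpl30 at chr1:37890227-37890526 on the plus strand.
Mrps18b: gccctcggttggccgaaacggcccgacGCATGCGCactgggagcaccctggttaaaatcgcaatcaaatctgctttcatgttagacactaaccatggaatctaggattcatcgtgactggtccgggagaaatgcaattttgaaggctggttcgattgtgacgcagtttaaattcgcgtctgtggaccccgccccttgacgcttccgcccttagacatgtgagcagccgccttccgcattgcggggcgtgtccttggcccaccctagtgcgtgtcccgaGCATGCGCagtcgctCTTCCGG
Mrpl16: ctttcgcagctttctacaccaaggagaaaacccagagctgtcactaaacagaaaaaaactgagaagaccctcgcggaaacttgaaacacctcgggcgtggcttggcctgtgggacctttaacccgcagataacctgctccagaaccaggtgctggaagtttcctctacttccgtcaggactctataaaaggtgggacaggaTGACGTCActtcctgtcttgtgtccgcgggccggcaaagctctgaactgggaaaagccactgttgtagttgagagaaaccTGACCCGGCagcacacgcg
Mrpl18: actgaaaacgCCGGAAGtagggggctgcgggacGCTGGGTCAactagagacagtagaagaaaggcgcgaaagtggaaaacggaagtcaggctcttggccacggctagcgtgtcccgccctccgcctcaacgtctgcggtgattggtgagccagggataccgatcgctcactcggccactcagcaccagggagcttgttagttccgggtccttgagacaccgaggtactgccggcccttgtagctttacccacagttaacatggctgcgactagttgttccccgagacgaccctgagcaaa
Mrpl30: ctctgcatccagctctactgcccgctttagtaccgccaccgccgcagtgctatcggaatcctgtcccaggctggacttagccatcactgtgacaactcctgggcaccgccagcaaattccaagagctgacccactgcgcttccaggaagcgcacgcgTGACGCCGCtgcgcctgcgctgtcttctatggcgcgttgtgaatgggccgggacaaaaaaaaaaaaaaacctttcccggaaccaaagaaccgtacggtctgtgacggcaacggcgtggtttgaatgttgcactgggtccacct

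Mrps18b held the NRF1 letters at 2 places, starting at bases -223 and 29 from the start site, and the ETS letters at base 44. Mrpl16 held the CRE letters at base -49 and the antioxidant response letters at base 32. The antioxidant response letters were also found in Mrpl18, at base -217, and in Mrpl30, at base -93. Over the 69 members with a promoter in the table, the ETS letters were found in 26 (37.7%), against 20.9% of the 9652 tested genes with a promoter and 9.93% of all 27025 promoters. The YY1 letters were found in 11.6% of members, 3.7% of tested genes and 1.64% of all promoters, and the NRF1 letters in 11.6% of members, 6.09% of tested genes and 3.05% of all promoters. The antioxidant response letters were in 20.3% of members, 17.1% of tested genes and 14.0% of all promoters. The E-box letters were in 7.25% of members, 11.8% of tested genes and 8.09% of all promoters, and the CRE letters in 2.9% of members, 3.71% of tested genes and 2.03% of all promoters. No member window held the ATF4 composite letters, which 2.66% of tested genes and 4.51% of all promoters held. These are matches of letters and not sites of binding.

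The summed level of the members was 2597, 2677 and 2800 CPM in MRC+L cells, 2893, 2777 and 3085 CPM in MRC cells and 3044, 4794 and 2581 CPM in PBS cells. The 2 exposed groups lay close together, while the PBS libraries spanned both of them and PBS replicate 2 was the highest of the 9. Group means were 2691 ± 102 CPM in MRC+L cells, 2918 ± 156 CPM in MRC cells and 3473 ± 1167 CPM in PBS cells (SD, n = 3 each), and the PBS mean was 2813 CPM without replicate 2. No difference of the sum from PBS exceeded the spread of the PBS libraries. Every one of the 77 tested members was highest in replicate 2 among the PBS libraries, against 44.3% of all genes tested, and in 71 of 77 PBS replicate 1 was above PBS replicate 3. The coefficient of variation of a member had a median of 7.25% in MRC+L cells, 8.73% in MRC cells and 36.0% in PBS cells, which was 11.8% without PBS replicate 2.

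**Figure D1:**
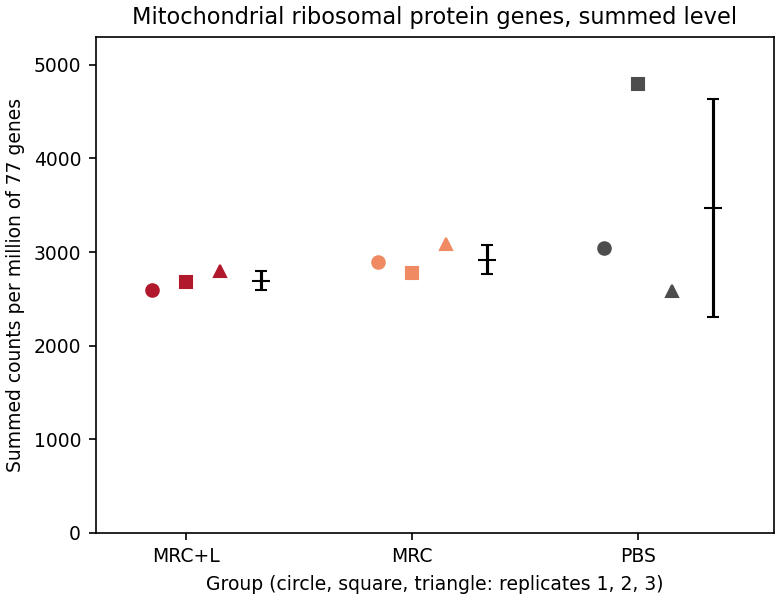
Summed level of 77 mitochondrial ribosomal protein genes in TMM-normalised CPM (vertical axis) in the 3 libraries of MRC+L, MRC and PBS cells. Bars show mean ± SD of 3 libraries. PBS replicate 2, at 4794 CPM, lies above the other 8 libraries, which range from 2581 to 3085 CPM.

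The levels per length ranged widely. Per kilobase of median coding transcript, Mrpl13 was the highest member in each group, with a mean of 197 CPM in MRC+L cells, 231 CPM in MRC cells and 373 CPM in PBS cells. The next in order differed between the groups. In MRC+L cells they were Mrps18b at 82.6, Mrpl33 at 69.8 and Mrpl4 at 67.3 CPM per kilobase, in MRC cells Mrps18b at 88.6, Mrpl30 at 79.3 and Mrpl33 at 73.6 CPM per kilobase, and in PBS cells Mrpl30 at 140, Mrpl4 at 105 and Mrpl42 at 93.3 CPM per kilobase. At the low end were Mrpl53 at 0 and, over the 9 libraries, Mrps25 at 3.81 and Mrpl19 at 5.82 CPM per kilobase. Of exon bases, 88.0% of Mrpl53, 69.8% of Mrps25 and 36.0% of Mrpl19 are shared with other annotated genes. The low values of these members are therefore uncertain. The order depends on the transcript length used: per kilobase of merged exons, Mrpl13 averaged 32.1 CPM over the 9 libraries, below Mrpl12 at 56.0, Mrpl2 at 41.8 and Mrpl10 at 34.7.

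**Figure D2:**
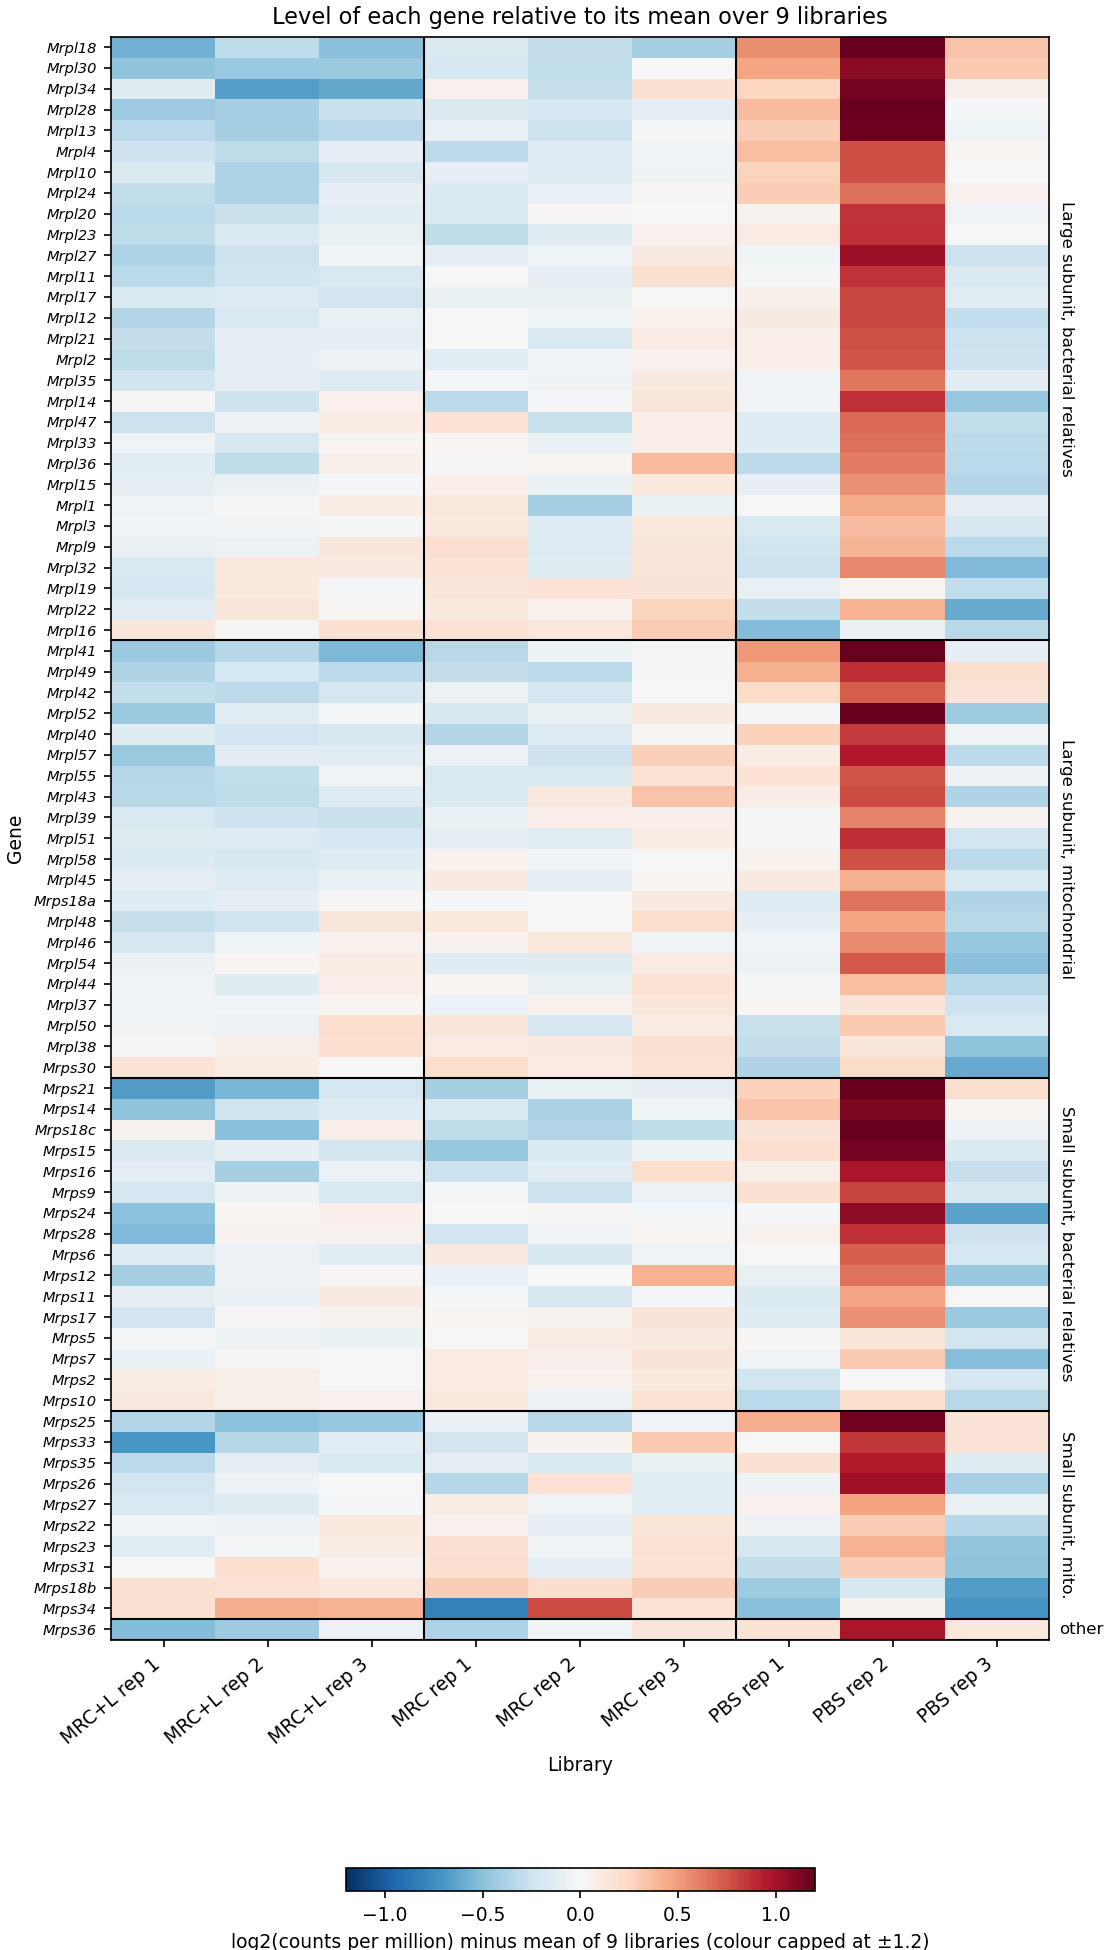
Level of each of 77 members (rows) in each library (columns) as log2 CPM minus the gene's mean over 9 libraries. Rows are grouped by subunit and by relation to bacterial proteins as classed in the text, with the class of Mrpl55 uncertain. "Mito." marks small-subunit proteins at places found only in mitochondria, and "other" is Mrps36. The column of PBS replicate 2 is above the mean in most rows, and the rows of Mrps18b and Mrpl16 are the reverse of most others.

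A minority of members moved against PBS, mostly downward, and 14 of them did so in both exposed groups. The share of all genes called in both was not determined. With all 9 libraries, 2 members were higher and 19 lower in MRC+L cells than in PBS cells (adjusted p under 0.05, edgeR quasi-likelihood test). That is 27.3% of members against 46.2% of all genes tested. Of members 2.6% were higher and 24.7% lower, and of all genes 21.8% were higher and 24.5% lower. In MRC cells 2 were higher and 13 lower than in PBS cells, 19.5% of members against 37.6% of all genes. Of members 2.6% were higher and 16.9% lower there, and of all genes 17.8% were higher and 19.8% lower. The share lower was therefore close to that of all genes, while few members were higher. The members' share of calls in either direction was thus below that of all genes in both comparisons in this fit. The order was the other way without PBS replicate 3 in MRC+L cells, at 58.4% against 53.9%. With no filter on low counts, 49.4% of members were called in MRC+L cells and 31.2% in MRC cells. Of the 28539 genes then tested, 24.0% were called in MRC+L cells and 19.5% in MRC cells. That larger set includes genes that failed the filter, which all 77 tested members passed, so these shares are over unlike sets. Calls over all genes rose from 6212 to 6839 in MRC+L cells and from 5050 to 5577 in MRC cells. The median log2 fold change of the members was -0.41 in MRC+L cells and -0.26 in MRC cells, against -0.03 for all genes in each. Both comparisons share the PBS libraries.

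Without PBS replicate 2 most downward calls stood and upward ones joined them. The exceptions were Mrpl20 in MRC+L cells and Mrps18c in MRC cells, which lost their calls, while Mrpl13 gained one in MRC cells. In MRC+L cells 12 members (15.6%) were then higher and 18 (23.4%) lower than in PBS cells, and their median was -0.05. Of all genes 55.7% were called, 27.4% higher and 28.3% lower. In MRC cells 18 members (23.4%) were higher and 13 (16.9%) lower, and their median was 0.10. Of all genes 50.6% were called there, 24.7% higher and 26.0% lower. Of the members, 19 in MRC+L cells and 26 in MRC cells had a log2 fold change of the opposite sign once this library was left out, so the sign of the median in MRC cells rests on it. The 12 members that were lower in both exposed groups with all 9 libraries were lower in both without it, after removing the trend with gene length by either measure of length, and with limma voom with sample quality weights. They were Mrpl4, Mrpl10, Mrpl18, Mrpl24, Mrpl28, Mrpl30, Mrpl41, Mrpl42, Mrpl49, Mrps14, Mrps21 and Mrps25. The 2 that were higher, Mrps18b and Mrpl16, were likewise higher in all 5 of these fits. The share of all genes called in all 5 fits was not determined. Of all genes, 51.4% in MRC+L cells and 44.9% in MRC cells were called with the trend of merged exon length removed, 50.9% in MRC+L cells and 44.1% in MRC cells with that of transcript length removed, and 73.3% in MRC+L cells and 65.9% in MRC cells with voom.

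Leaving out other libraries changed the number of calls too. In MRC cells 26 members were lower without PBS replicate 3 (33.8% of members against 23.5% of all genes). Between 3 and 7 were lower without any one of the 3 MRC or 3 MRC+L libraries, 3.9% to 9.09% of members against 13.6% to 17.6% of all genes. In MRC+L cells 44 were lower without PBS replicate 3 (57.1% of members against 28.1% of all genes) and 10 without MRC+L replicate 2 (13% against 17.9%). Of the 21 calls in MRC+L cells, 10 held whichever library was left out, namely Mrpl18, Mrpl24, Mrpl28, Mrpl30, Mrpl41, Mrpl42, Mrpl49, Mrps18b, Mrps21 and Mrps25. Of the 15 calls in MRC cells, 4 did: Mrpl18, Mrpl30, Mrpl49 and Mrps18b. The share of calls among all genes that held in this way was not determined. Whether these numbers are unusual was therefore not tested.

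**Figure D3:**
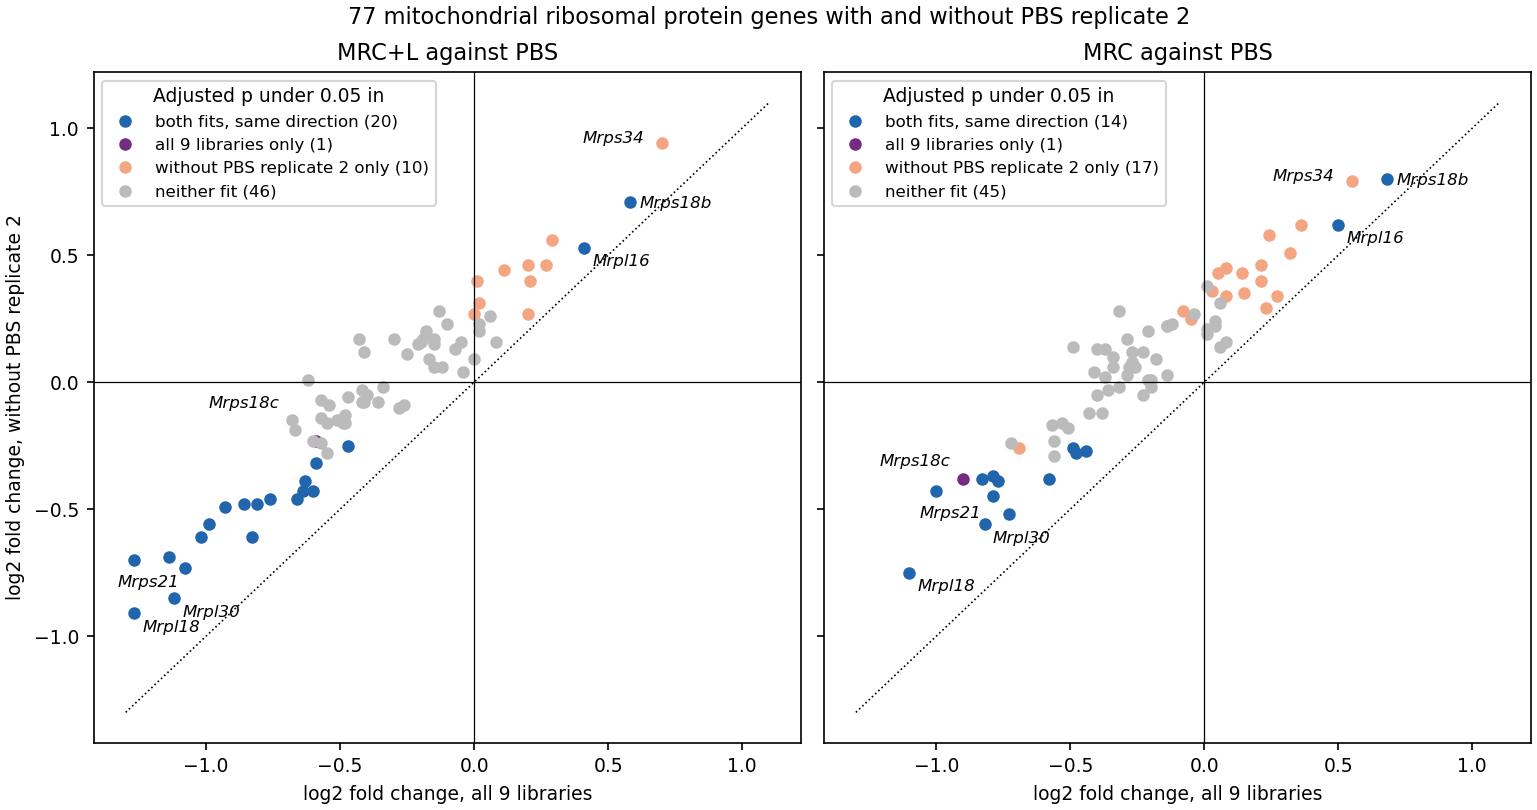
log2 fold change of 77 members with all 9 libraries (horizontal axis) and without PBS replicate 2 (vertical axis), for MRC+L against PBS (left) and MRC against PBS (right). Points lie above the dotted line of equal values. Calls in both fits, 20 for MRC+L and 14 for MRC, sit at the low end of the range and at Mrps18b and Mrpl16 at the upper end.

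Among large-subunit genes with a bacterial counterpart, Mrpl18 had the largest fall in both comparisons. Its relative in bacteria binds the small ribosomal RNA of the large subunit. Mrpl18, at chr17:13130236-13135232 in GRCm39 (minus strand), had 23.6, 28.4 and 24.8 CPM in MRC+L cells, 31.2, 28.7 and 26.6 CPM in MRC cells and 51.7, 88.7 and 44.5 CPM in PBS cells. Of its exon bases, 10.1% are shared with Tcp1 on the opposite strand, so part of its count is uncertain. Every exposed library lay below every PBS library. The log2 fold change was -1.27 ± 0.228 (SE) in MRC+L cells (2.41-fold lower, adjusted p = 0.00147) and -1.10 ± 0.227 in MRC cells (2.14-fold lower, adjusted p = 0.004). Without PBS replicate 2 it was -0.91 in MRC+L cells and -0.75 in MRC cells, and both calls stood. Absence of overlap was itself a rule by which called members were named, so it adds no separate evidence for them. Against PBS, groups did not overlap in 26 of the 77 members for MRC+L cells and in 16 for MRC cells. The matching share of all genes is not given here.

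Mrpl30, at chr1:37929558-37937616 (plus strand), had 42.1, 43.2 and 43.1 CPM in MRC+L cells, 51.0, 47.9 and 58.6 CPM in MRC cells and 81.5, 124 and 73.0 CPM in PBS cells. Again no exposed library reached the PBS range, and the MRC+L libraries were also below the MRC libraries. Its log2 fold change was -1.12 ± 0.183 in MRC+L cells (adjusted p = 0.000824) and -0.82 ± 0.181 in MRC cells (adjusted p = 0.00553). Mrpl28, at chr17:26342474-26345587, had 32.5, 33.3 and 36.4 CPM in MRC+L cells, 38.9, 38.1 and 40.3 CPM in MRC cells and 57.1, 103 and 43.2 CPM in PBS cells. The groups did not overlap, though PBS replicate 3 was close to the MRC libraries, and the log2 fold change was -0.99 ± 0.257 in MRC+L cells (adjusted p = 0.0106) and -0.79 ± 0.255 in MRC cells (adjusted p = 0.0338).

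Mrpl10, Mrpl4 and Mrpl24 fell by less. Mrpl10 anchors the stalk that recruits translation factors, and Mrpl4 and Mrpl24 have bacterial relatives at the tunnel through which the new peptide leaves. Mrpl10 had 51.2, 44.5 and 50.6 CPM in MRC+L cells, 53.8, 51.9 and 55.1 CPM in MRC cells and 69.6, 98.4 and 57.9 CPM in PBS cells. For Mrpl4 the values were 53.5, 51.5 and 59.4 CPM in MRC+L cells, 51.4, 57.1 and 62.2 CPM in MRC cells and 82.0, 109 and 65.0 CPM in PBS cells. Mrpl24 gave 53.3, 50.6 and 61.1 CPM in MRC+L cells, 58.1, 61.4 and 65.9 CPM in MRC cells and 80.4, 103 and 67.6 CPM in PBS cells. In each of these genes the groups did not overlap, by a margin that was narrow between MRC cells and PBS replicate 3. The log2 fold change of Mrpl10 was -0.63 in MRC+L cells (adjusted p = 0.0137) and -0.49 in MRC cells (adjusted p = 0.0457). That of Mrpl4 was -0.64 in MRC+L cells (adjusted p = 0.0125) and -0.58 in MRC cells (adjusted p = 0.0224). That of Mrpl24 was -0.60 in MRC+L cells (adjusted p = 0.0089) and -0.44 in MRC cells (adjusted p = 0.0442). Of the exon bases of Mrpl24, 26.3% are shared with Rrnad1 on the opposite strand. Of those of Mrpl10, 14.1% are shared with Gm11574 on the opposite strand. Part of the count of both genes is therefore uncertain.

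The neighbours of Mrpl10 in the stalk, and Mrpl1, whose bacterial relative forms a separate stalk near the exit site for tRNA, did not pass the test of edgeR. Mrpl12, the stalk protein that in human cells also binds the mitochondrial RNA polymerase, had 65.4, 73.8 and 78.6 CPM in MRC+L cells, 83.8, 80.9 and 86.5 CPM in MRC cells and 89.8, 146 and 68.2 CPM in PBS cells, which overlap. Its log2 fold change was -0.48 in MRC+L cells (adjusted p = 0.107) and -0.27 in MRC cells (adjusted p = 0.367). Mrpl11, at the base of the stalk, had a log2 fold change of -0.55 in MRC+L cells (adjusted p = 0.085) and -0.27 in MRC cells (adjusted p = 0.394). Mrpl1 gave -0.12 in MRC+L cells (adjusted p = 0.58) and -0.23 in MRC cells (adjusted p = 0.316). With limma voom with quality weights, Mrpl12 (-0.29, adjusted p = 0.00197) and Mrpl11 (-0.22, adjusted p = 0.0292) were called lower in MRC+L cells.

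Mrpl16 was the single large-subunit member that was higher in both exposed groups with all 9 libraries. Its bacterial relative lies near the peptidyl transferase centre. Mrpl16, at chr19:11747755-11752324 (plus strand), had 21.9, 20.2 and 22.7 CPM in MRC+L cells, 22.6, 21.8 and 24.7 CPM in MRC cells and 13.9, 18.9 and 15.9 CPM in PBS cells. The groups did not overlap. The log2 fold change was 0.41 ± 0.135 in MRC+L cells (1.33-fold higher, adjusted p = 0.0302) and 0.50 ± 0.134 in MRC cells (1.42-fold higher, adjusted p = 0.0145). Because PBS replicate 2 was the highest PBS library for it, the difference was larger without that library, 0.53 in MRC+L cells and 0.62 in MRC cells. The call was lost in 5 of the 9 omissions of 1 library in MRC+L cells, with adjusted p up to 0.118, and in 2 of 9 in MRC cells, with adjusted p up to 0.0639.

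A set of 3 large-subunit genes for places found only in mitochondria were lower in both exposed groups. Mrpl41, at chr2:24864129-24865110 (minus strand), whose human protein has been reported to bind BCL2, had 12.4, 13.3 and 11.6 CPM in MRC+L cells, 13.4, 16.2 and 16.6 CPM in MRC cells and 24.2, 42.4 and 15.8 CPM in PBS cells. MRC+L cells lay below all PBS libraries, while PBS replicate 3 was within the MRC range. The log2 fold change was -1.14 ± 0.294 in MRC+L cells (adjusted p = 0.01) and -0.83 ± 0.290 in MRC cells (adjusted p = 0.0454). Mrpl49, at chr19:6103652-6107815, had 22.0, 24.4 and 22.8 CPM in MRC+L cells, 23.2, 22.7 and 27.9 CPM in MRC cells and 38.0, 52.3 and 32.4 CPM in PBS cells, with no overlap. Its log2 fold change was -0.83 ± 0.173 in MRC+L cells (adjusted p = 0.00344) and -0.73 ± 0.173 in MRC cells (adjusted p = 0.00769). Mrpl42 had 38.4, 37.8 and 40.9 CPM in MRC+L cells, 45.0, 40.8 and 47.1 CPM in MRC cells and 54.8, 77.9 and 52.3 CPM in PBS cells. It too had no overlap, with a log2 fold change of -0.66 in MRC+L cells (adjusted p = 0.00572) and -0.48 in MRC cells (adjusted p = 0.0311).

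Other large-subunit genes with enzyme-like or mixed roles gave values short of the threshold with all 9 libraries in edgeR. Mrpl58, a peptidyl-tRNA hydrolase built into the ribosome that rescues stalled translation, gave a log2 fold change of -0.40 in MRC+L cells (adjusted p = 0.168, or 0.0359 with limma voom) and -0.23 in MRC cells (adjusted p = 0.449). Mrpl44, which resembles RNase III, gave -0.07 in MRC+L cells (adjusted p = 0.769) and 0.01 in MRC cells (adjusted p = 0.975). Mrps30 gave 0.29 in MRC+L cells (adjusted p = 0.218) and 0.36 in MRC cells (adjusted p = 0.147). Without PBS replicate 2, Mrps30 was 0.56 in MRC+L cells (adjusted p = 0.000177) and 0.62 in MRC cells (adjusted p = 6.02e-05), and both passed.

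A set of 3 small-subunit genes were lower in both exposed groups. Mrps21, at chr3:95769946-95778831 (minus strand), had 8.97, 9.77 and 12.3 CPM in MRC+L cells, 10.8, 13.5 and 13.2 CPM in MRC cells and 17.3, 41.3 and 16.3 CPM in PBS cells. The groups did not overlap, and PBS replicate 2 was far above the other PBS libraries. The log2 fold change was -1.27 ± 0.330 in MRC+L cells (adjusted p = 0.0105) and -1.0 ± 0.325 in MRC cells (adjusted p = 0.0354), and without that library -0.70 in MRC+L cells and -0.43 in MRC cells, still called. Mrps25, at chr6:92146506-92161014 (minus strand), had 16.9, 15.4 and 15.8 CPM in MRC+L cells, 20.5, 17.2 and 21.1 CPM in MRC cells and 29.2, 48.2 and 24.0 CPM in PBS cells, with no overlap. Its log2 fold change was -1.08 ± 0.228 in MRC+L cells (adjusted p = 0.00362) and -0.79 ± 0.225 in MRC cells (adjusted p = 0.0201), but 69.8% of its exon bases are shared with Nr2c2 on the opposite strand, so the count is uncertain. Mrps14 had 24.5, 29.0 and 30.8 CPM in MRC+L cells, 30.5, 26.3 and 33.1 CPM in MRC cells and 43.4, 74.5 and 34.9 CPM in PBS cells. Its groups did not overlap, and its log2 fold change was -0.86 in MRC+L cells (adjusted p = 0.0168) and -0.77 in MRC cells (adjusted p = 0.0325).

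The 3 genes of the Mrps18 family received different calls. Their proteins resemble one bacterial protein in sequence, but Mrps18c alone takes its place in the small subunit, and Mrps18a and Mrps18b sit at places found only in mitochondria. Mrps18b, at chr17:36221271-36227281 (minus strand), had 67.2, 66.9 and 64.8 CPM in MRC+L cells, 72.5, 68.5 and 72.5 CPM in MRC cells and 44.1, 51.9 and 37.1 CPM in PBS cells. All exposed libraries were above all PBS libraries. The log2 fold change was 0.58 ± 0.122 in MRC+L cells (1.5-fold higher, adjusted p = 0.00356) and 0.68 ± 0.122 in MRC cells (1.6-fold higher, adjusted p = 0.00179). The call of Mrps18b held in every omission of 1 library in both comparisons. Of its exon bases, 30.5% are shared with Gm16279 on the opposite strand, so part of its count is uncertain. Mrps18c had 10.7, 7.36 and 11 CPM in MRC+L cells, 8.42, 8.15 and 8.43 CPM in MRC cells and 11.6, 25.1 and 9.96 CPM in PBS cells. It was lower in MRC cells, by a log2 fold change of -0.90 (adjusted p = 0.0484), a call lost without PBS replicate 2 (-0.38, adjusted p = 0.0716). In MRC+L cells Mrps18c gave -0.68 (adjusted p = 0.103). Of its exon bases, 23.2% are shared with Gm43511 on the same strand, so part of its count is uncertain too. Mrps18a had 37.4, 38.8 and 41.8 CPM in MRC+L cells, 41.2, 41.4 and 44.7 CPM in MRC cells and 37.3, 65.2 and 32.3 CPM in PBS cells, with log2 fold changes of -0.19 (adjusted p = 0.496) in MRC+L cells and -0.08 (adjusted p = 0.799) in MRC cells. In MRC cells Mrps18a was called higher without PBS replicate 2 (0.28, adjusted p = 0.0257). Differences in response between these 3 genes were not tested.

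**Figure D4:**
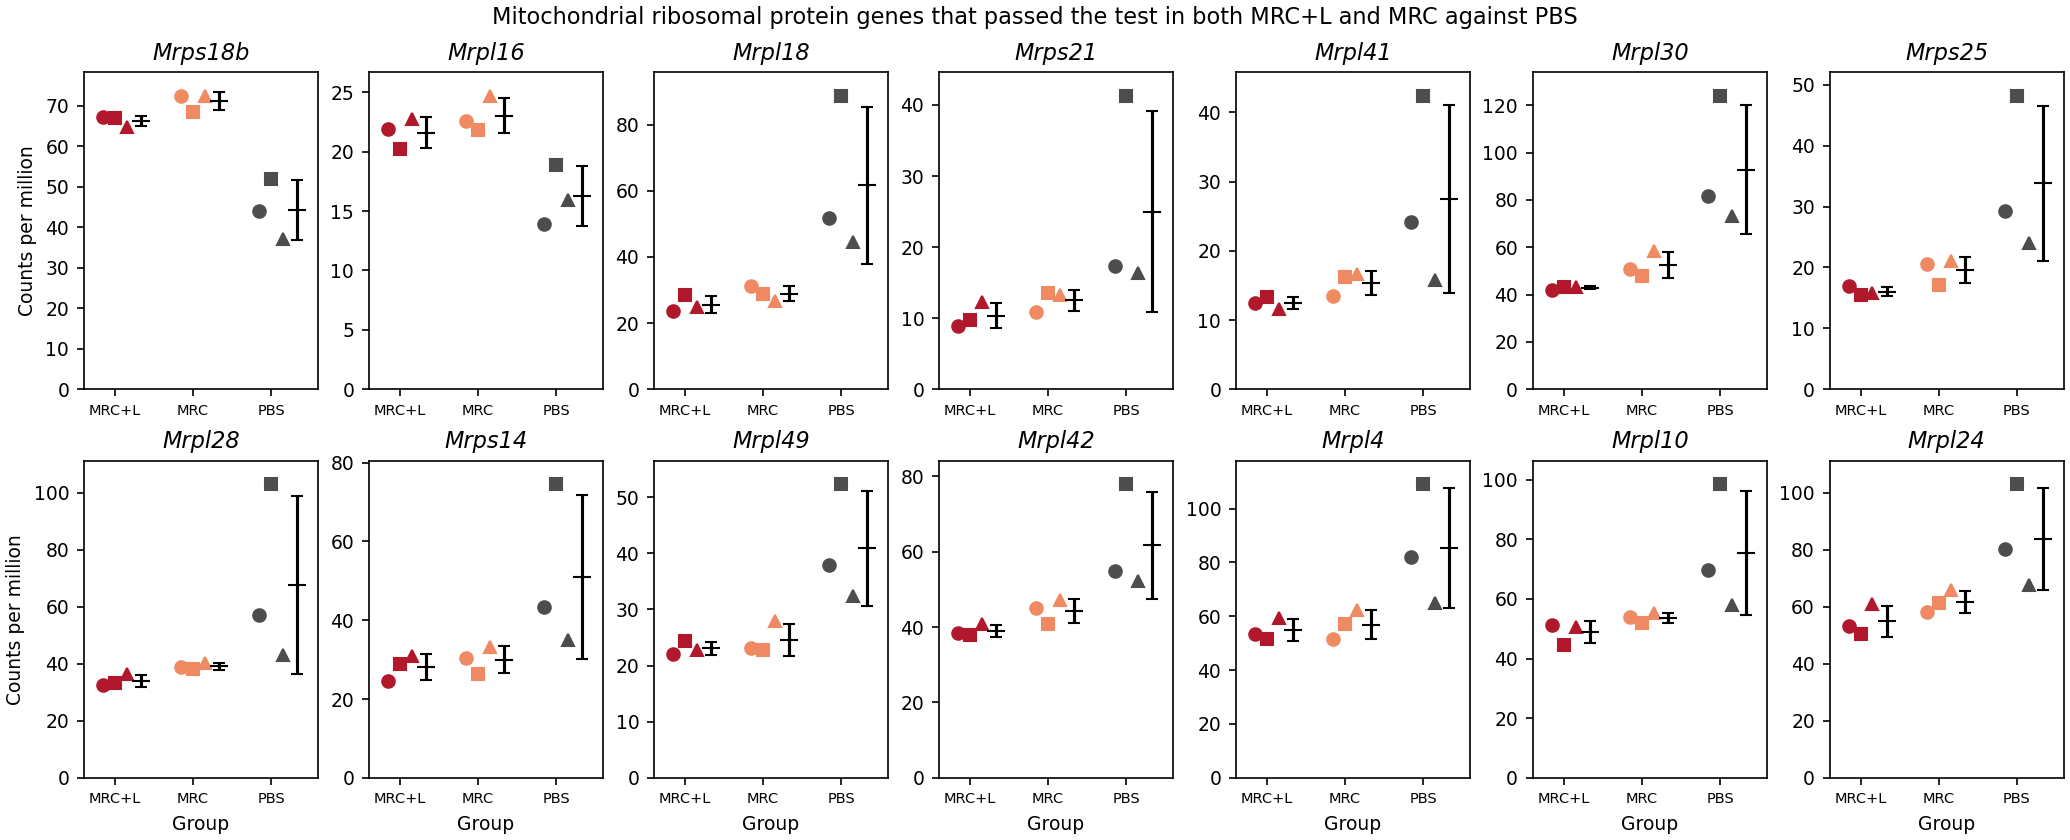
CPM (vertical axes, from 0) of the 14 members that passed the test in both MRC+L and MRC against PBS, by group. Circles, squares and triangles are replicates 1, 2 and 3, and bars show mean ± SD (n = 3). Mrps18b and Mrpl16 are higher in the exposed groups and the other 12 lower, and the squares of PBS replicate 2 top the PBS group throughout.

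Several other small-subunit genes listed for their roles did not pass the test with all 9 libraries. Mrps12, which lies at the decoding centre, gave a log2 fold change of -0.25 in MRC+L cells (adjusted p = 0.454) and 0.01 in MRC cells (adjusted p = 0.972). Mrps5 gave -0.04 in MRC+L cells (adjusted p = 0.767) and 0.08 in MRC cells (adjusted p = 0.597). Mrps22 gave 0.02 in MRC+L cells (adjusted p = 0.918) and 0.04 in MRC cells (adjusted p = 0.852), and Mrps7 gave 0.02 in MRC+L cells (adjusted p = 0.938) and 0.15 in MRC cells (adjusted p = 0.531). In MRC cells Mrps7 was called higher without PBS replicate 2 (0.35, adjusted p = 0.0125) and with the trend of merged exon length removed (0.29, adjusted p = 0.049). Mrps2 gave 0.20 in MRC+L cells (adjusted p = 0.116) and 0.23 in MRC cells (adjusted p = 0.0868). Without PBS replicate 2, Mrps2 was called higher, at 0.27 in MRC+L cells (adjusted p = 0.0086) and 0.29 in MRC cells (adjusted p = 0.00528). Mrps34 had 10.6, 12.6 and 12.5 CPM in MRC+L cells, 5.32, 16.1 and 10.5 CPM in MRC cells and 6.58, 9.59 and 5.73 CPM in PBS cells. It was the most variable member in MRC cells, and 77.8% of its exon bases are shared with Mapk8ip3 and Nme3, so its count is uncertain. Its log2 fold change was 0.70 in MRC+L cells (adjusted p = 0.116) and 0.55 in MRC cells (adjusted p = 0.236). Without PBS replicate 2, Mrps34 was called higher, at 0.94 in MRC+L cells (adjusted p = 0.00703) and 0.79 in MRC cells (adjusted p = 0.0243). By subunit, with all 9 libraries, 14 of 50 large-subunit and 4 of 26 small-subunit genes were lower in MRC+L cells. In MRC cells 9 of 50 large-subunit and 4 of 26 small-subunit genes were lower, and 1 gene of each subunit was higher in both comparisons. Without PBS replicate 2, large-subunit genes were 6 higher and 13 lower in MRC+L cells, and 10 higher and 10 lower in MRC cells. Small-subunit genes were then 6 higher and 4 lower in MRC+L cells, and 8 higher and 3 lower in MRC cells.

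A further 7 members were lower in MRC+L cells with all 9 libraries without being called in MRC cells, and the difference between these effects was not called for any of them in the test of MRC+L against MRC with all 9 libraries. Mrpl13, the member with the most counts, had 191, 182 and 190 CPM in MRC+L cells, 225, 201 and 236 CPM in MRC cells and 295, 543 and 232 CPM in PBS cells. MRC+L cells lay below all MRC and PBS libraries. Its log2 fold change was -0.93 ± 0.257 in MRC+L cells (adjusted p = 0.0145) and -0.69 ± 0.255 in MRC cells (adjusted p = 0.0558, or 0.0277 without PBS replicate 2). The rest were Mrpl34 at -1.02, Mrps36 at -0.81, Mrps33 at -0.76, Mrpl20 at -0.59, Mrpl40 at -0.59 and Mrpl39 at -0.47, in MRC+L cells. Mrpl20 was lost without PBS replicate 2 (adjusted p = 0.067), and the others were kept. Mrps36, which is not a ribosomal protein, was -0.56 in MRC cells (adjusted p = 0.106).

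A set of 10 members was called higher in both exposed groups without PBS replicate 2 and in neither with all 9 libraries; they were picked out after their values were seen. They were Mrpl9, Mrpl22, Mrpl32, Mrpl38, Mrps2, Mrps10, Mrps23, Mrps30, Mrps31 and Mrps34. Mrpl38, for example, had 80.5, 85.7 and 93.0 CPM in MRC+L cells, 87.6, 88.2 and 92.7 CPM in MRC cells and 67.0, 89.7 and 58.4 CPM in PBS cells. Its exposed libraries exceeded PBS replicates 1 and 3 but overlapped replicate 2. Without that library its log2 fold change was 0.46 in MRC+L cells (adjusted p = 0.000231) and 0.51 in MRC cells (adjusted p = 9.7e-05), and with all 9 it was 0.27 in MRC+L cells (adjusted p = 0.161) and 0.32 in MRC cells (adjusted p = 0.114).

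Light added to the nanoparticles gave no called member. Between MRC+L and MRC cells 0 members passed the test of edgeR with all 9 libraries, and 0 had an unadjusted p under 0.05, against 0.0% of all genes called. DESeq2, which called 0.164% of all genes, and limma voom with quality weights, which called 1.95%, also called 0 members. The median log2 fold change of the members was -0.12, with 69 of 77 negative, against -0.01 for all genes, and standard errors of single members were 0.0953 to 0.364. In 17 of 77 members the 3 MRC+L libraries lay below the 3 MRC libraries, and in 0 of 77 above them, while 24.4% of all genes did not overlap in one direction or the other and 12.6% lay below. A fit of the 6 libraries of these groups alone called 2 members lower in MRC+L cells, Mrpl30 (adjusted p = 0.0408, 1.23-fold lower) and Mrpl13 (adjusted p = 0.046, 1.17-fold lower), against 5.05% of all genes called.

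**Figure D5:**
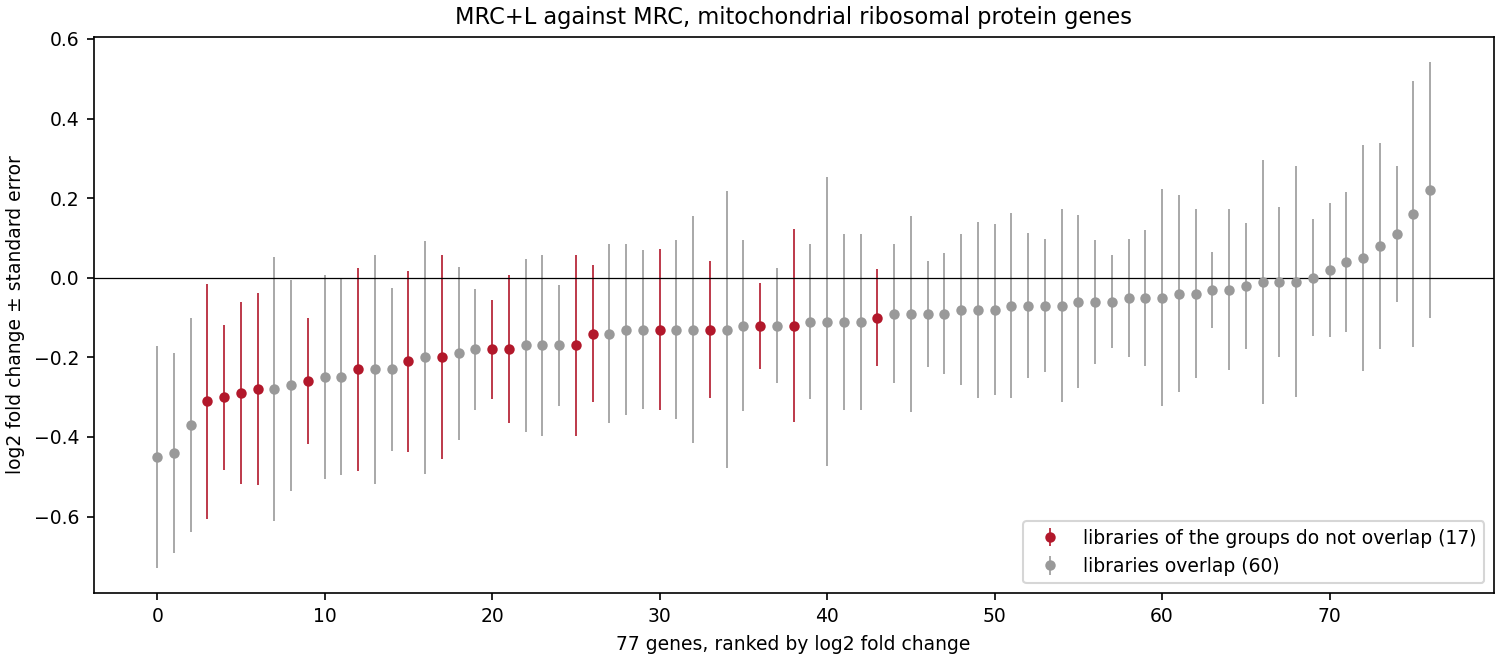
log2 fold change of MRC+L against MRC for 77 members, ranked, with the standard error of the fit of all 9 libraries as bars. Red points are the 17 members whose 3 MRC+L libraries lie below the 3 MRC libraries, and 69 of 77 points are below 0.

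A further 5 ribosomal proteins carry other kinds of name. Dap3, a GTP-binding protein of the small subunit, had 65.6, 59.9 and 62.1 CPM in MRC+L cells, 75.2, 69.2 and 73.9 CPM in MRC cells and 104, 165 and 99.6 CPM in PBS cells. It was lower in both exposed groups with no overlap, at -0.97 in MRC+L cells (adjusted p = 0.00151) and -0.75 in MRC cells (adjusted p = 0.0073). Aurkaip1 was lower in MRC+L cells (-0.79, adjusted p = 0.0344) and gave -0.67 in MRC cells (adjusted p = 0.0706). Ptcd3, which has pentatricopeptide repeats that bind RNA, was lower in MRC+L cells (-0.30, adjusted p = 0.0337) and gave -0.25 in MRC cells (adjusted p = 0.0761, or 0.0144 without PBS replicate 2). Gadd45gip1, near the exit of the peptide tunnel, gave 0.03 in MRC+L cells and -0.11 in MRC cells, and Chchd1 gave -0.40 in MRC+L cells and -0.14 in MRC cells, none of them called. Chchd1 turned to 0.10 in MRC+L cells (adjusted p = 0.52) without PBS replicate 2, and was then called higher in MRC cells (0.36, adjusted p = 0.021).

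Genes that act around the ribosome were mixed. Of 26 genes for its assembly, 4 were higher and 4 lower in MRC+L cells, and 4 higher and 1 lower in MRC cells. Without PBS replicate 2 there were 9 higher and 4 lower in MRC+L cells and 10 higher and 1 lower in MRC cells, and the median log2 fold change was 0.18 in MRC+L cells and 0.20 in MRC cells, in place of -0.06 in MRC+L cells and 0.08 in MRC cells. Trub2, a pseudouridine synthase, was higher (0.85 in MRC+L cells, adjusted p = 0.0003, and 0.78 in MRC cells, adjusted p = 0.000636), as was Dhx30, an RNA helicase (0.46 in MRC+L cells, adjusted p = 0.00253, and 0.47 in MRC cells, adjusted p = 0.00272). Of 16 translation factor genes tested, 2 were higher and 3 lower in MRC+L cells, and 1 higher and 3 lower in MRC cells. Without that library 4 of 17 were higher and 4 lower in MRC+L cells, and 5 higher and 4 lower in MRC cells. The elongation factor gene Tufm fell to 70.9 ± 2.54 CPM in MRC+L cells and 81.9 ± 3.55 CPM in MRC cells, against 111 ± 25.2 CPM in PBS cells (SD, n = 3 each). Oxa1l, which inserts the new proteins into the inner membrane, was lower as well (-0.58 in MRC+L cells, adjusted p = 0.00323, and -0.42 in MRC cells, adjusted p = 0.0198).

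Of 17 genes for mitochondrial aminoacyl-tRNA synthetases, which charge tRNAs with amino acids, 2 were higher and 3 lower in MRC+L cells, and 2 higher and 2 lower in MRC cells. These counts were 3 higher and 3 lower in MRC+L cells, and 4 higher and 3 lower in MRC cells, without PBS replicate 2. Wars2 had 33.2 ± 1.96 CPM in MRC+L cells, 33.1 ± 1.61 CPM in MRC cells and 15.4 ± 1.45 CPM in PBS cells, and Mars2 was also higher (1.37 in MRC+L cells, adjusted p = 0.00144, and 1.23 in MRC cells, adjusted p = 0.00321). Of 12 genes for mitochondrial transcription and RNA processing, 3 were higher and 2 lower in both comparisons, and without that library Mtpap joined the higher ones in MRC+L cells. The higher ones were Trmt10c, Elac2 and the transcription factor gene Tfb2m, and the lower ones were Tfam and Hsd17b10. The RNA of the small mitochondrial subunit, mt-Rnr1, was 231, 251 and 287 CPM in MRC+L cells, 546, 227 and 258 CPM in MRC cells and 92.2, 138 and 57.9 CPM in PBS cells, and it was higher in both (1.42 in MRC+L cells, adjusted p = 0.00994, and 1.84 in MRC cells, adjusted p = 0.00331). That of the large subunit, mt-Rnr2, was 0.44 in MRC+L cells (adjusted p = 0.234) and 0.98 in MRC cells (adjusted p = 0.0232).

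Counts of 2 related gene groups follow. Of 77 nuclear-encoded subunits of the respiratory chain, 0 were higher and 52 lower in MRC+L cells and 0 higher and 26 lower in MRC cells, and without PBS replicate 2 there were 2 higher and 50 lower in MRC+L cells and 3 higher and 31 lower in MRC cells. Of 80 cytosolic ribosomal protein genes, 2 were higher and 0 lower in MRC+L cells and 1 higher and 0 lower in MRC cells, and without that library 51 were higher in MRC+L cells and 70 in MRC cells. No test of the difference between these groups and the members was made.

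Members often share a promoter region with another gene. A coding gene on the opposite strand started within 1000 bases, head to head, for 18 of 78 members (23.1%) and for 1260 of 11633 tested coding genes (10.8%). Of the 17 such neighbours tested, 4 were higher and 5 lower in MRC+L cells, and 4 higher and 4 lower in MRC cells. There were 5 higher and 5 lower in each without PBS replicate 2. The following pairs were picked out after their values were seen. Mitd1, which starts 66 bases from Mrpl30, fell to 22.1 ± 1.29 CPM in MRC+L cells and 23.4 ± 3.35 CPM in MRC cells, against 82.7 ± 15.6 CPM in PBS cells (SD, n = 3 each), a log2 fold change of -1.91 in MRC+L cells (adjusted p = 1.28e-05) and -1.82 in MRC cells (adjusted p = 2.26e-05). Ppp1r10, which starts 45 bases from Mrps18b, was higher like it, at 0.58 in MRC+L cells (adjusted p = 0.0187) and 0.51 in MRC cells (adjusted p = 0.037). Fau, 59 bases from Mrpl49, gave -0.34 in MRC+L cells (adjusted p = 0.41) and -0.24 in MRC cells (adjusted p = 0.59) with all 9 libraries. Without PBS replicate 2 the sign turned and Fau was called higher, at 0.28 in MRC+L cells (adjusted p = 0.029) and 0.37 in MRC cells (adjusted p = 0.00512), while Mrpl49 was lower in both fits.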

How the data were processed

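Per the labels' protocols, Trizol RNA of 4T1 cells went into TruSeq RNA libraries. The authors deposited raw counts per gene for each of 9 libraries, made with featureCounts 2.0.1 over exons with paired ends and the Ensembl 104 annotation of GRCm39, per the file headers. The headers give no strand option and no option for reads with several places, so overlapping or near-identical genes are uncertain. The aligner is not given in the sources used here. The gene length of the deposited table, in merged exon bases, was used for the length trend. Symbols came from a name table by gene ID (52083 of 55416 matched).

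Library totals, 15019765 to 20044166, set the precision of single genes, and limits for a count of 0 (3 counts) cover counting error only. The quasi-likelihood test of edgeR 4.0.16 with TMM factors was fitted in R 4.3.3 to all 9 libraries, after filterByExpr (min.count 10, min.total.count 15), for MRC+L against PBS, MRC against PBS and MRC+L against MRC. Adjusted p-values are Benjamini-Hochberg over all genes tested, with a threshold of 0.05. Fold changes used a prior count of 0.125. Alternatives were DESeq2 1.42.0 and its size factors, limma 3.58.1 voom with sample quality weights, no filter, each library left out, a replicate block, 6 libraries alone, and removal of the trend of log CPM with length (lowess span 0.5), the version with median transcript length being added after the data were seen. Tests were run on simulated data first. Plots used Python 3.11.15, pandas 2.3.3 and matplotlib 3.10.9.

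The members and lists were chosen with earlier results of these data known. Members named were those called with no overlap between groups (up to 10 per direction with the largest change), the 3 highest and 3 lowest per kilobase, and a fixed list of members by role. From each partner list up to 4 with the smallest adjusted p, and the 5 subunits with other names, could be named. Further members, and neighbouring genes, were named after their values were seen. The values of 1 gene counted among the aminoacyl-tRNA synthetases are not reported here.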

Additional observations from a re-analysis of the deposited data

How the results depend on the processing

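With limma voom weights the 2 higher calls became 13 in MRC+L and 18 in MRC against PBS. They became 6 in MRC+L and 7 in MRC with the length trend removed, 6 in MRC+L and 5 in MRC with the replicate block and the length trend removed, and 5 in each with the transcript length trend removed. The replicate block alone left 1 higher call in MRC+L. The 19 lower calls of MRC+L became 36 with no filter and 35 with voom weights, and the 13 of MRC became 21 with no filter and 6 with the replicate block. Leaving out 1 library gave 1 to 12 higher and 10 to 44 lower calls in MRC+L, and 1 to 18 higher and 3 to 26 lower calls in MRC. Over these omissions the median log2 fold change ranged from -0.61 to -0.05 in MRC+L and from -0.44 to 0.10 in MRC, where it was reversed without PBS replicate 2. For MRC+L against MRC the 6 libraries alone gave 2 lower calls in place of 0. The causes of these changes were not tested, other than that each omission leaves fewer samples.

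Correlations of same-numbered libraries over genes were -0.185 to 0.0385, so the replicate numbers were not taken to pair the samples, and the block was used only as an alternative. Of 4004 values of single members under an alternative, 3714 kept their direction and side of the threshold or stayed uncalled, 184 gained a call, 103 lost one and 3 were called in the opposite direction. These 3 were Mrpl15 in MRC (0.25 without PBS replicate 2, the range over omissions being -0.22 to 0.25) and Mrps18a in MRC (0.28 without PBS replicate 2, with a range of -0.27 to 0.28, and 0.2 with voom weights), neither called with all 9 libraries. The summed levels moved by less than 1 SD with other scalings. The lowest count of a tested member was 84, and whether depth or the number of replicates limited single calls was not tested.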
